A study of Peromyscus maniculatus with 16 samples.

Results

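Bile duct and progenitor marker genes are used in liver to recognise cholangiocytes, the epithelial cells that line the bile ducts, and the progenitor-like cells of the ductular reaction. The set was chosen by name and held 9 symbols, which were Krt7, Krt19, Krt23, Epcam, Sox9, Spp1, Cftr, Prom1 and Cd24a. Of these 9 genes, 7 had a line among the 16910 genes of the count table, and Epcam and Cd24a were not analysed here. All 7 were among the 12639 genes tested, which had at least 0.5 CPM (CPM is the count relative to the sequencing depth, with library sizes adjusted here by TMM normalization) in at least 1 animal.

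Liver RNA was sequenced for 16 deer mice (Peromyscus maniculatus), outbred rodents kept as closed stocks, all aged 10 months at the end. The control group (C) held 6 males on chow. The animals on a high fat diet (HFD), which supplied 58% of its energy as fat, also held sucrose and was given for 28 weeks, were grouped by histology into 5 males without steatosis (NS) and 5 animals with steatosis (S). The S group held 3 females, 35955, 35982 and 35990, and 2 males, 36016 and 10880. The BW stock (P. maniculatus bairdii) gave 13 animals. The SM2 stock (P. maniculatus sonoriensis) gave 1 male to each group, namely C 10876, NS 10865 and S 10880. All females were in S, so that steatosis and female sex cannot be told apart except through the males, and S vs C and NS vs C share the same control animals. Total counts lay between 6374518 and 11349971 in C, 7336900 and 9362184 in NS, and 4640733 and 10892425 in S.

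Some libraries stood apart. In S 35990 the macrophage markers summed to 1962 CPM, against 232.5 to 792 CPM in the other S animals. In S 36016 the stellate cell and fibroblast markers summed to 3572 CPM, against at most 608 CPM in any other animal, and Col1a1 alone reached 2057 CPM. The SM2 animals differed from the BW animals in 1370 called genes, or 868 without NS 10865. The hepatocyte markers, of which 10 of 12 were in the table, summed to between 46790 and 83010 CPM, with Apoa1 the most abundant on average over all animals and Ttr in C.

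Cholangiocytes arise from the same embryonic precursors as hepatocytes, under Notch signals and the transcription factor Sox9, and they carry keratins that healthy hepatocytes largely lack. They modify bile through ion channels such as Cftr. When the liver is injured, cells with duct features can multiply around the portal tracts, and hepatocytes under stress can switch on Sox9 or Spp1. In bulk liver, fewer cells of a type and less RNA per cell cannot be told apart.

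Members of the set were compared for S vs C, which asks what accompanies steatosis and the diet together. A gene was called when its adjusted p was under 0.1 and it changed 2-fold or more in edgeR's quasi-likelihood test. Of the 7 genes, 0 were called in S vs C, where 4.06% of all tested genes were called (3.09% higher and 0.965% lower). By unadjusted p under 0.05 there was 1, Prom1, where 23.8% of all tested genes passed, and DESeq2 called 0. The 2 groups overlapped for all 7 genes, while they did not overlap for 4.19% of the tested genes. The 513 genes behind the 4.06% became 219 without C 35975, 247 without C 36001, 190 without C 36007 and 245 without S 36016.

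NS vs C sets males on HFD, sorted afterwards by histology as free of steatosis, against males on chow. In it 0 of the 7 genes were called by edgeR, 0 had an unadjusted p under 0.05 and DESeq2 called 0. Of all tested genes 0.0712% were called, 8.29% had an unadjusted p under 0.05 and 0.989% did not overlap between the groups. For S vs NS, animals on the same diet, 0 of the 7 genes were called by edgeR, 0 had an unadjusted p under 0.05 and DESeq2 called 0. There 0.00791% of all tested genes were called, 10.9% had an unadjusted p under 0.05 and 1.18% did not overlap. The single gene behind the 0.00791% became 191 with sex in the fit, 157 with males alone, 71 with DESeq2 and 15 without S 10880. All 7 genes overlapped between the groups in both comparisons. The median log2 fold change of the 7 genes was 0.19 for S against C, -0.0031 for NS against C and 0.075 for S against NS, beside 0.10, 0.0075 and 0.039 over all tested genes.

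**Figure D1:**
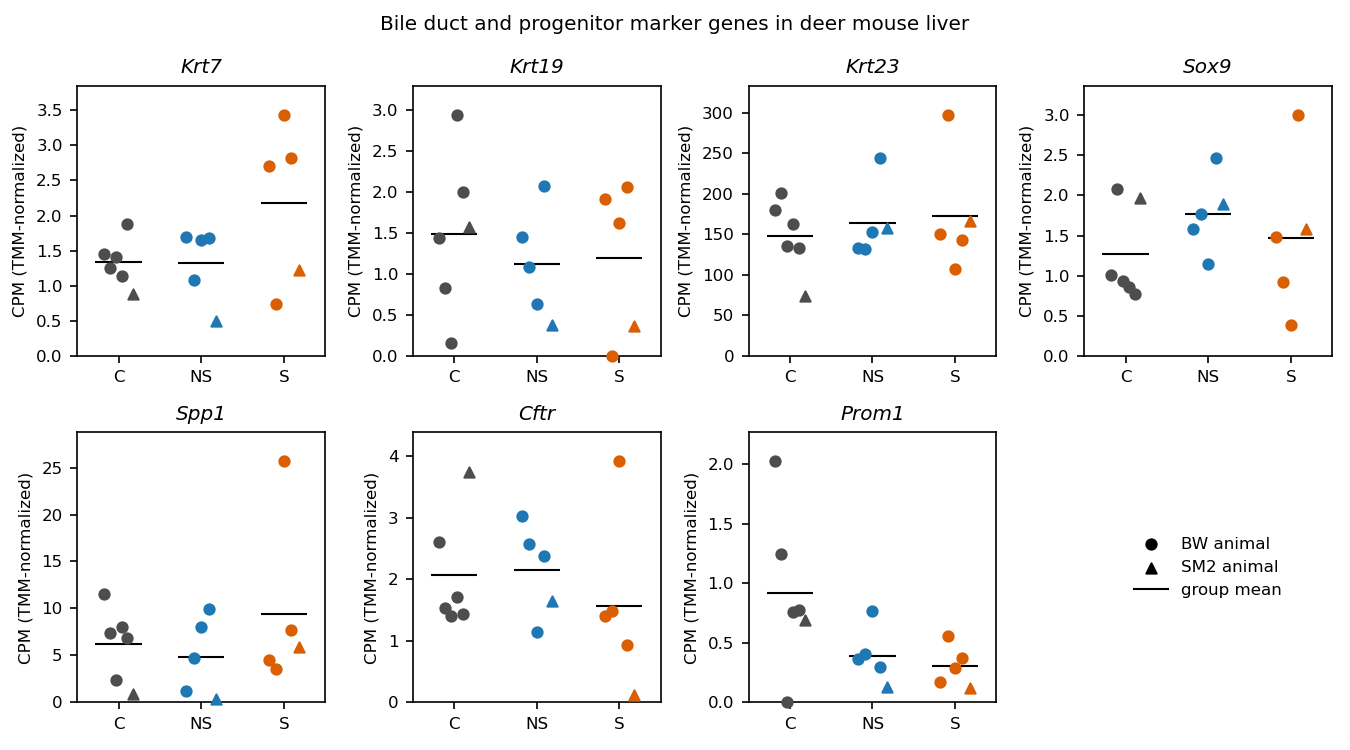
TMM-normalized CPM (vertical axes, linear, from 0) of the 7 genes in each animal of C (n = 6), NS (n = 5) and S (n = 5), with circles for BW, triangles for SM2 animals and a line at the group mean. The groups overlap in every panel, and S 35990 stands alone for Spp1 at 25.65 CPM.

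The duct keratins come first. Krt7 and Krt19 are intermediate filament proteins that pathologists stain to find bile ducts. Krt7 in C had a lowest value of 0.886 CPM, a median of 1.33 CPM and a highest of 1.89 CPM. NS animals had 1.70 CPM in 35930, 1.09 CPM in 35937, 1.66 CPM in 35963, 1.68 CPM in 35987 and 0.504 CPM in 10865. In S it was at 2.703 CPM in 35955, 0.741 CPM in 35982, 3.43 CPM in 35990, 2.82 CPM in 36016 and 1.22 CPM in 10880. S 35955, 35990 and 36016 lay above every C and NS animal, whereas S 35982 lay below every C animal. The log2 fold change was 0.72 (SE 0.41, adjusted p of 0.297) in S vs C and 0.72 (SE 0.44, adjusted p of 0.548) in S vs NS. For NS vs C it was -0.0031 (SE 0.43).

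Krt19 ranged from 0.156 CPM in C 35998 through a median of 1.51 CPM to 2.94 CPM in C 36001. The NS animals were at 1.46 CPM in 35930, 1.09 CPM in 35937, 0.638 CPM in 35963, 2.07 CPM in 35987 and 0.378 CPM in 10865. The S animals were at 1.92 CPM in 35955, 1.62 CPM in 35990, 2.06 CPM in 36016 and 0.365 CPM in 10880, and 35982 had 0 counts, which allows a level of up to 0.556 CPM. Each group thus spread from animals near the bottom of the range to animals near or above 2 CPM. On the log2 scale the fold changes were -0.32 (SE 0.69) for S against C, -0.41 (SE 0.70) for NS against C and 0.092 (SE 0.73) for S against NS. None of them exceeded its standard error. The counts behind Krt19 ran from 0 to 31 per animal and those behind Krt7 from 4 to 36, which limits the precision of both.

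Krt23 is a type I keratin that has been linked to ductular reactions and to stressed hepatocytes. It gave 91.7% of the 22714 counts of the 7 genes, with 757 to 2478 counts per animal, although such shares, and ranks of genes by CPM, depend on transcript lengths, which were not used. In C it had a lowest value of 74.5 CPM, a median of 149.7 CPM and a highest of 201.5 CPM. NS animals had 133 CPM in 35930, 132 CPM in 35937, 153 CPM in 35963, 245 CPM in 35987 and 158 CPM in 10865. In S it was at 150.5 CPM in 35955, 298 CPM in 35982, 107 CPM in 35990, 143 CPM in 36016 and 166.5 CPM in 10880. Apart from NS 35987 and S 35982, the animals on HFD lay within the range of C. Its log2 fold change was 0.22 (SE 0.27) in S vs C and 0.15 (SE 0.27) in NS vs C, and S vs NS gave 0.075 (SE 0.28). The S vs C value became -0.061 without S 35982. S 35982 had the highest Krt23 and the lowest Krt7 and Krt19 of S, so the duct keratins and Krt23 did not move as 1 block in that animal.

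The table held 45 keratin symbols, Krt7, Krt19 and Krt23 included, of which 19 had 0 counts in every animal and 12 were tested. Krt8 and Krt18, the pair that hepatocytes and cholangiocytes share, had means of 378 ± 148 and 193 ± 79.0 CPM in C (SD, n = 6). Their means were 532.5 ± 181 and 323 ± 110.3 CPM in NS and 402 ± 103 and 247 ± 102 CPM in S (SD, n = 5 each). In the RefSeq annotation of HU_Pman_BW_mat_3.1, which is not the assembly used for the counts, Krt19 lies beside Krt9, Krt13 and Krt15, and Krt23 beside Krt12, Krt20, Krt39 and Krt40, so both sit among other type I keratin genes. Neither Krt8 nor Krt18 was called in any comparison. Krt18 had a log2 fold change of 0.74 (SE 0.32, adjusted p of 0.594) between NS and C and of 0.35 (SE 0.32, adjusted p of 0.528) between S and C.

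Sox9 is the transcription factor of the duct lineage and is also known from activated stellate cells. Its C animals lay between 0.776 and 2.08 CPM, with a median of 0.975 CPM. NS animals were at 1.58 CPM in 35930, 1.76 CPM in 35937, 1.15 CPM in 35963, 2.47 CPM in 35987 and 1.89 CPM in 10865. S animals were at 1.48 CPM in 35955, 0.926 CPM in 35982, 0.381 CPM in 35990, 3.00 CPM in 36016 and 1.58 CPM in 10880. The S group thus held both the lowest and the highest Sox9 of all 16 animals. Fitted log2 fold changes of Sox9 were 0.19 (SE 0.46) for S against C, 0.47 (SE 0.45) for NS against C and -0.29 (SE 0.47) for S against NS. The S vs C value was -0.22 without S 36016, and 0.83 both with males alone, of which S held 2, and with sex in the fit.

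Spp1 encodes osteopontin, a secreted phosphoprotein made by bile duct cells and also by macrophages. In C it had a lowest value of 0.886 CPM in 10876, a median of 7.11 CPM and a highest of 11.6 CPM in 35972. In NS it was at 1.21 CPM in 35930, 4.75 CPM in 35937, 8.03 CPM in 35963, 9.97 CPM in 35987 and 0.378 CPM in 10865. In S it was at 4.53 CPM in 35955, 3.52 CPM in 35982, 25.65 CPM in 35990, 7.70 CPM in 36016 and 5.85 CPM in 10880. S 35990 was alone above the range of C, and the other S animals lay within it. Spp1 had a log2 fold change of 0.63 (SE 0.69) between S and C, -0.33 (SE 0.71) between NS and C and 0.96 (SE 0.74) between S and NS. Without S 35990 the S vs C value was -0.20, and without S 35990 and 36016, an alternative chosen after seeing the data, it was -0.40.

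The macrophage list bears on Spp1. It held 20 genes, 16 in the table and tested, none of these at 0 in every animal, and its most abundant gene on average was Marco, or Ctss in S. Its summed level was 1962 CPM in S 35990 and 769.5, 792, 534 and 232.5 CPM in S 35955, 35982, 36016 and 10880. It lay between 473 and 851 CPM in C and between 300.4 and 856 CPM in NS. Between S and C, 1 of the 16 genes was called by edgeR, higher, beside 4.06% of all tested genes, and 0 by DESeq2. This gene, Mmp12, was at 99.7 CPM in S 35990 and at most 1.13 CPM in any other animal. S 35990 thus had the highest Spp1 and the highest macrophage sum, while the animals next in macrophage sum, NS 35930, C 35998, S 35982 and S 35955, had Spp1 of 1.21, 2.35, 3.52 and 4.53 CPM. The part of macrophages in the Spp1 level was not tested.

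**Figure D2:**
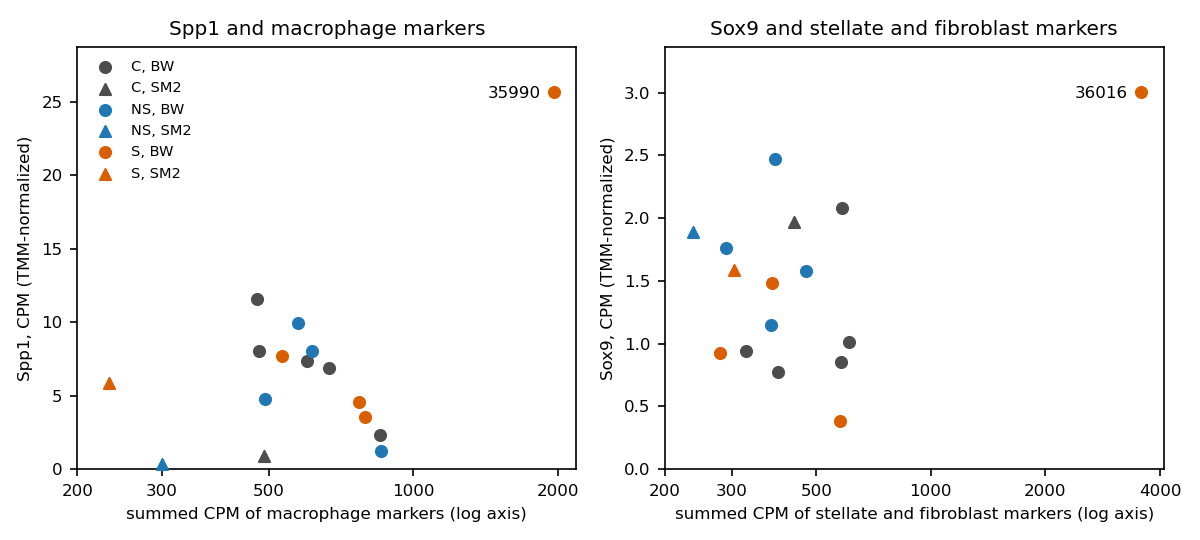
Spp1 against the summed macrophage markers (left) and Sox9 against the summed stellate cell and fibroblast markers (right), each point 1 animal, with TMM-normalized CPM on a linear vertical axis and summed CPM on a logarithmic horizontal axis. S 35990 (1962 CPM, Spp1 25.65 CPM) and S 36016 (3572 CPM, Sox9 3.00 CPM) lie apart from the rest.

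The stellate cell and fibroblast list bears on Sox9. All 13 genes were in the table and tested, none was at 0 in every animal, and Dcn was the most abundant on average, or Col1a1 in S. In S the sums were 383 CPM in 35955, 280.0 CPM in 35982, 576 CPM in 35990, 3572 CPM in 36016 and 304.5 CPM in 10880. They lay between 328 and 608 CPM in C and between 237 and 471 CPM in NS. Between S and C, edgeR called 2 of the 13 genes higher, Col1a1 and Col1a2, and 1 lower, Dcn, beside 4.06% of all tested genes. DESeq2 called 1 of the 13. Col1a1 had a log2 fold change of 5.56 with S 36016 and an adjusted p of up to 0.736 with 1 animal left out, and Col1a2 of 3.53 with an adjusted p of up to 0.352. Dcn, which encodes the matrix proteoglycan decorin, fell by 1.05 on the log2 scale. It was called in 24 of 28 alternatives, with log2 fold changes from -1.24 to -0.93. The part of these cells in the Sox9 level was not tested.

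Cftr is the chloride channel in the apical membrane of cholangiocytes. In C it had a lowest value of 1.41 CPM, a median of 1.62 CPM and a highest of 3.74 CPM in 10876. In NS it was at 3.03 CPM in 35930, 2.58 CPM in 35937, 1.15 CPM in 35963, 2.37 CPM in 35987 and 1.64 CPM in 10865. In S it was at 1.40 CPM in 35955, 1.48 CPM in 35982, 3.91 CPM in 35990, 0.938 CPM in 36016 and 0.122 CPM in 10880. The SM2 animals spanned nearly the whole range, highest of C in 10876 and lowest of all in 10880, where a single count was found. Cftr had a log2 fold change of -0.38 (SE 0.54) between S and C, 0.052 (SE 0.53) between NS and C and -0.43 (SE 0.56) between S and NS. The S vs C value was 0.19 in the BW animals alone, -2.05 in the males alone, of which S held 2, and -2.06 with sex in the fit, and its adjusted p was at least 0.122 in every alternative.

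Prom1 encodes CD133, a membrane glycoprotein used to sort progenitor cells. In C it had a median of 0.768 CPM and a highest value of 2.02 CPM in 35972, and 35998 had 0 counts, which allows a level of up to 0.469 CPM. In NS it was at 0.364 CPM in 35930, 0.407 CPM in 35937, 0.765 CPM in 35963, 0.296 CPM in 35987 and 0.126 CPM in 10865. In S it was at 0.174 CPM in 35955, 0.556 CPM in 35982, 0.286 CPM in 35990, 0.375 CPM in 36016 and 0.122 CPM in 10880. Every S animal lay below every C animal other than 35998. All 5 S animals had 3 counts or fewer, and the pooled counts were 11 in S and 45 in C, a ratio of 0.300 after scaling (95% exact interval 0.140 to 0.590, covering counting error only). For S vs C the log2 fold change was -1.62 (SE 0.71), the unadjusted p 0.0354 and the adjusted p 0.179 in edgeR's quasi-likelihood test, and the gene was not called. It was called without C 35998, with an adjusted p of 0.0674, where the alternatives gave adjusted p-values from 0.0674 to 0.344. For NS vs C the log2 fold change was -1.20 (SE 0.68), with an adjusted p of 0.666, and in S vs NS it was -0.42 (SE 0.75).

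**Figure D3:**
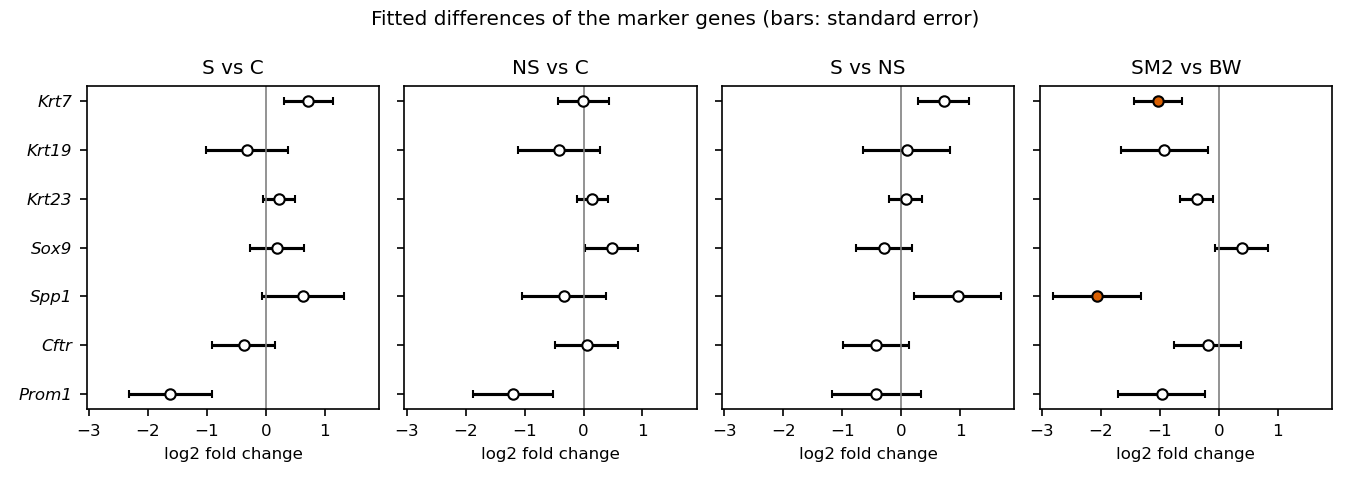
Log2 fold changes (horizontal axes) of the 7 genes in S vs C, NS vs C, S vs NS and SM2 vs BW from edgeR, with bars for 1 standard error and filled points for called genes. Only Spp1 (-2.07) and Krt7 (-1.04) in SM2 vs BW are filled.

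Variation among animals of 1 group was large for most of the set. The biological coefficient of variation, the square root of edgeR's dispersion, was 0.318 for Krt23 and lay between 0.419 for Krt7 and 0.786 for Spp1 in the other 6 genes, with a median of 0.321 over all tested genes. Over all animals, the highest Spp1 was 67.8 times the lowest, which rested on 3 counts, whereas the ratio was 4.00 for Krt23. Within groups the scatter of counts was 148 times that of counting error for Krt23 and 41.4 times for Spp1 (chi-square per degree of freedom, 13 degrees of freedom), but only 1.91 times for Prom1, 2.12 times for Krt7 and 2.74 times for Sox9. Counting error therefore made up a large share of the spread of the last 3 genes. At 3 counts or fewer were 10 of the 16 animals for Prom1, 4 for Krt19, and 1 each for Spp1 and Cftr.

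The stocks were compared next, in a fit with group and stock, because each group held 1 SM2 animal. Of the 7 genes, 2 were called, both lower in SM2, where 10.8% of all tested genes were called (5.91% higher and 4.93% lower). Spp1 had a mean of 2.37 ± 3.02 CPM in the SM2 animals (SD, n = 3) and 7.81 ± 6.12 CPM in the BW animals (SD, n = 13). It was the lowest of its group in C 10876 and NS 10865, but in S 10880 it was above S 35955 and 35982. The log2 fold change was -2.07 (SE 0.75), with an adjusted p of 0.0713 in edgeR's quasi-likelihood test. Krt7 had a mean of 0.869 ± 0.357 CPM in SM2 and 1.76 ± 0.775 CPM in BW (SD, n = 3 and n = 13). It too was lowest in C 10876 and NS 10865, and in S only 35982 was below 10880. The log2 fold change was -1.04 (SE 0.41), with an adjusted p of 0.0978 in edgeR's quasi-likelihood test.

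Both stock calls were close to the threshold. Neither gene was called without C 10876 (adjusted p of 0.225 for Spp1 and 0.123 for Krt7 in edgeR), without NS 10865 (0.291 and 0.345) or without S 35990 and 36016 (0.168 and 0.151). Without S 10880, Spp1 was called (0.048) and Krt7 was not (0.264), and with RLE size factors Krt7 was not called (0.101). Over the alternatives the adjusted p ranged from 0.0073 to 0.291 for Spp1 and from 0.0844 to 0.345 for Krt7. The macrophage sums were 488, 300.4 and 232.5 CPM in C 10876, NS 10865 and S 10880, against 473 to 1962 CPM in the BW animals. Of the 16 macrophage genes 4 were called lower in SM2, Ctss, Marco, Mrc1 and Vsig4, and 1 higher, Adgre1, beside 10.8% of all tested genes. Only Mrc1 of these 5 was called in every alternative. Their part in the lower Spp1 was not tested.

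Other genes of bile duct epithelium were taken from a list of 37, of which 34 were in the table and 30 were tested, with Tff3 and Mmp7 at 0 in every animal. Clu was the most abundant on average, with means of 3521, 2912 and 2175 CPM in C, NS and S. The summed list had means of 4703, 4441 and 3460 CPM, so that Clu made up most of each. It also held Krt8 and Krt18, which hepatocytes share, with means of 378 and 193 CPM in C. The sum is therefore no measure of duct cells alone, and the cells behind Clu were not tested. The list summed to 3031 to 6718 CPM in C, 3456 to 5965 CPM in NS and 1931 to 4770 CPM in S, with medians of 4543, 4569 and 3788 CPM. Of the 30, S vs C had 2 called, both higher, and 9 with an unadjusted p under 0.05, where 4.06% and 23.8% of all tested genes passed, and DESeq2 called 3. The median log2 fold change was 0.17 beside 0.10 over all tested genes. Wfdc2, a secreted protein of ductal epithelia, was at 3.19 to 5.43 CPM in C (median 4.02 CPM) and at 8.72, 6.86, 24.4, 6.38 and 4.26 CPM in S 35955, 35982, 35990, 36016 and 10880. S 35990 was far above the others and S 10880 lay inside the range of C. Its log2 fold change was 1.31 (SE 0.37), with an adjusted p of 0.0561 in edgeR's quasi-likelihood test.

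Ddr1, a collagen receptor kinase of epithelia, was at 2.35 to 3.64 CPM in C (median 3.09 CPM) and at 4.71, 4.45, 10.8, 7.32 and 3.65 CPM in S 35955, 35982, 35990, 36016 and 10880. The groups did not overlap, but C 10876 at 3.64 CPM and S 10880 at 3.65 CPM were nearly equal. Its log2 fold change was 1.03 (SE 0.30), with an adjusted p of 0.0632. Between NS and C, 0 of the 30 were called by edgeR and 0 by DESeq2. There 6 had an unadjusted p under 0.05, beside 8.29% of all tested genes. In S vs NS 0 were called by edgeR and 0 by DESeq2, and 3 had an unadjusted p under 0.05, beside 10.9% of all.

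Genes of progenitor and fetal liver cells formed a list of 17, all in the table, of which 15 were tested and Afp was the most abundant on average, or Tnfrsf12a in C. In S vs C 1 was called higher and 1 lower (4.06% of all tested genes were called), 2 had an unadjusted p under 0.05 (23.8% of all) and DESeq2 called 1. The median log2 fold change was 0.52, and the sums were 35.0 to 55.7 CPM in C, 39.6 to 57.2 CPM in NS and 31.4 to 128.7 CPM in S. Sall4, a transcription factor of fetal liver and stem cells, had a count in all 6 C animals and in 1 of the 5 S animals, with 70 pooled counts in C and 1 in S. This is a ratio of 0.0176 (95% exact interval 0.000438 to 0.101), and the adjusted p in edgeR's quasi-likelihood test was 0.0222. Sall4 lay between 0.289 and 3.13 CPM in C and between 0.0987 and 3.19 CPM in NS, and the single S count was in 35990.

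Dlk1, a surface protein of fetal hepatoblasts, was at 56.7 CPM in S 35990 and had 0 counts in the other 4 S animals, while C reached at most 0.938 CPM. Its log2 fold change of 5.26 (SE 1.63, adjusted p of 0.0738) rested on that animal, and without it the S group had 0 counts, so no fold change could be estimated. It was called in 15 of 27 alternatives and lost without S 35990 or without C 10876, 35972, 35975, 36001 or 36007 (adjusted p of at most 0.1745), and DESeq2 gave it no adjusted p. Between NS and C, 0 of the 15 genes were called by edgeR and 0 by DESeq2. There 0 had an unadjusted p under 0.05, beside 8.29% of all tested genes. In S vs NS 0 were called by edgeR and 1 by DESeq2, and 3 had an unadjusted p under 0.05, beside 10.9% of all.

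The Notch list, ligands, receptors, targets and regulators of the pathway that forms ducts, held 22 genes, all in the table, of which 21 were tested. In S vs C 2 were called, both higher and both ligands of the Jagged family, where 4.06% of all tested genes were called. An unadjusted p under 0.05 was found for 10 of the 21, beside 23.8% of all, DESeq2 called 3, and the median log2 fold change was 0.67. Jag1, whose loss leaves too few bile ducts in Alagille syndrome, lay between 0.444 and 2.66 CPM in C (median 1.13 CPM) and was at 3.05, 3.71, 4.77, 3.94 and 3.78 CPM in S 35955, 35982, 35990, 36016 and 10880. NS animals had 1.33 CPM in 35930, 1.63 CPM in 35937, 4.34 CPM in 35963, 2.07 CPM in 35987 and 2.40 CPM in 10865. Every S animal was above every C animal, and NS 35963 reached the level of S. The log2 fold change in S vs C was 1.54 (SE 0.43), with an adjusted p of 0.0558 in edgeR's quasi-likelihood test.

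Jag2 lay between 1.57 and 4.62 CPM in C (median 2.42 CPM) and was at 6.45, 15.9, 5.72, 9.76 and 15.0 CPM in S 35955, 35982, 35990, 36016 and 10880. In NS it was at 3.40 CPM in 35930, 3.66 CPM in 35937, 4.08 CPM in 35963, 4.34 CPM in 35987 and 12.98 CPM in 10865. Every S animal was again above every C animal, and among the NS animals only the SM2 animal lay above C. The log2 fold change in S vs C was 1.89 (SE 0.42), with an adjusted p of 0.0277. The summed level of the list, led by the Notch regulator Numb, or by Notch2 in S, was 126 to 177 CPM in C, 141 to 222 CPM in NS and 199 to 268 CPM in S. Of the 21 genes, NS vs C had 0 called by edgeR and 0 by DESeq2. There 3 had an unadjusted p under 0.05, beside 8.29% of all tested genes. In S vs NS 0 were called by edgeR and 0 by DESeq2, and 1 had an unadjusted p under 0.05, beside 10.9% of all.

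The YAP and TAZ list held the coactivators of the Hippo pathway, their TEAD partners, kinases and targets, 22 symbols of which 19 were in the table and tested. In S vs C 2 were called, both higher, and 8 of the 19 had an unadjusted p under 0.05, beside 4.06% and 23.8% of all tested genes. DESeq2 called 2, and the median log2 fold change was 0.53. Ccn1, a matricellular protein and target of YAP, lay between 1.11 and 33.5 CPM in C (median 5.05 CPM) and was at 35.4, 40.2, 116, 70.4 and 56.9 CPM in S 35955, 35982, 35990, 36016 and 10880. Every S animal was above every C animal, with S 35955 near C 35972, and the NS animals lay between 2.91 and 20.2 CPM. The log2 fold change was 2.80 (SE 0.68), with an adjusted p of 0.036 in edgeR's quasi-likelihood test. Axl, a receptor tyrosine kinase and YAP target, had a log2 fold change of 1.13 (SE 0.34, adjusted p of 0.066), with S 35990 at 29.4 CPM and S 35955 and 10880, at 11.5 and 5.85 CPM, inside the range of C. The list summed to 145 to 200.1 CPM in C, 144 to 215.5 CPM in NS and 207 to 420 CPM in S, with Ccn1 the most abundant on average over all animals but Sav1 in C and in NS. In NS vs C 0 of the 19 genes were called by edgeR and 0 by DESeq2. There 2 had an unadjusted p under 0.05, beside 8.29% of all tested genes. In S vs NS 0 were called by edgeR and 1 by DESeq2, and 4 had an unadjusted p under 0.05, beside 10.9% of all.

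**Figure D4:**
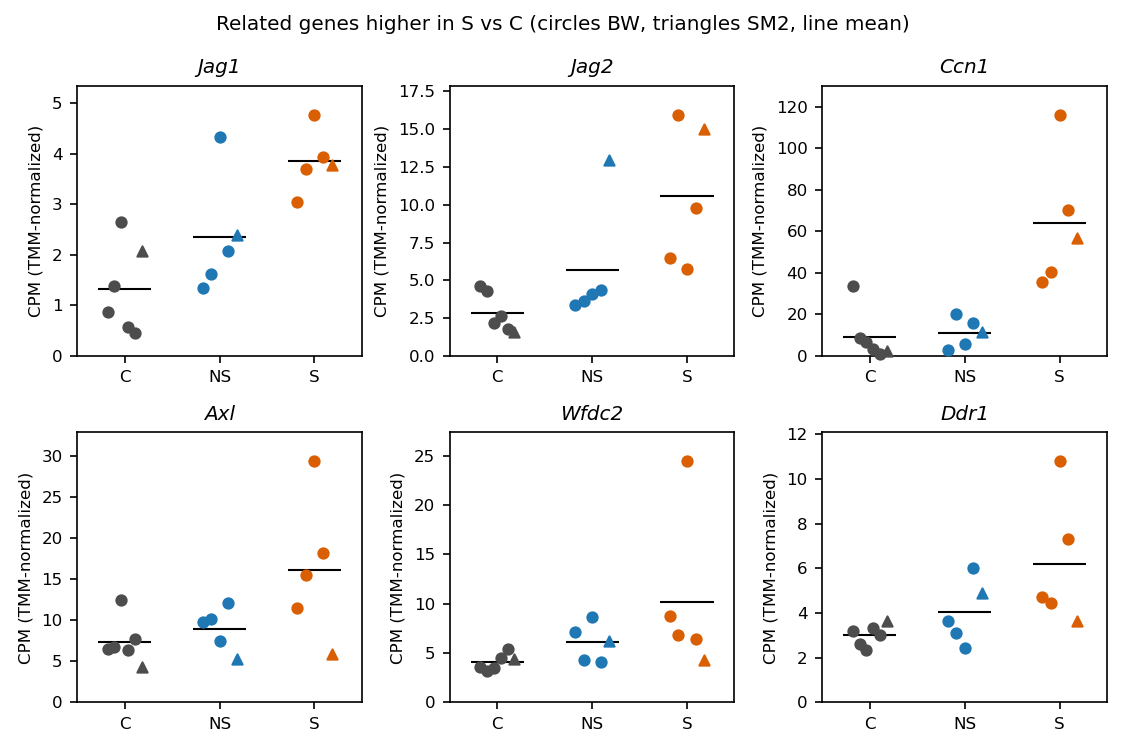
TMM-normalized CPM (vertical axes, linear, from 0) of Jag1, Jag2, Ccn1, Axl, Wfdc2 and Ddr1, the listed related genes called higher in S vs C other than Dlk1, in each animal of C (n = 6), NS (n = 5) and S (n = 5). Circles are BW and triangles SM2 animals, lines are group means, and the S animals lie above all C animals for Jag1, Jag2, Ccn1 and, narrowly, Ddr1.

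These calls differed in how far they held over 28 alternatives. The alternatives are not independent, since leaving out an NS animal leaves the S and C counts unchanged. Males alone and the fit with sex rest on the same S males. Jag2 and Sall4 were called in all 28 and Ccn1 in 27, the exception being without S 35990 and 36016 (adjusted p of 0.135, range 0.0046 to 0.135). Wfdc2 was called in 22, and lost without C 35975 (0.119) and without S 35990 (0.147). Jag1 was called in 21, and lost without C 35975, 36001 or 36007 (at most 0.111). Ddr1 was called in 18, and lost without C 35998, 35975, 36001 or 36007 or S 36016 or 35990 (at most 0.146). Axl was called in 16, and lost without C 10876, 35972, 35975, 36001 or 36007 or S 35982, 36016 or 35990 (at most 0.156). Because all 3 females were in S, the fit with sex sets the 2 S males against C and is no separate adjustment for sex. In it Wfdc2 (log2 fold change of 0.36, adjusted p of 0.659), Axl (0.70, 0.367), Ddr1 (0.84, 0.230) and Jag1 (1.54, 0.118) were not called. With S reduced to these males the fold change of Jag1 stayed and those of Wfdc2, Axl and Ddr1 were smaller. The adjusted p of Wfdc2, Axl, Ddr1 and Jag1 ranged up to 0.659, 0.386, 0.3895 and 0.166 over the alternatives.

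Between the stocks, 6 of the 30 bile duct genes were called, beside 10.8% of all tested genes, 5 higher in SM2 (Bicc1, Itga6, Itgb4, Pkhd1 and Slc5a1) and 1 lower (Cldn4). Pkhd1 encodes fibrocystin, a protein of the cholangiocyte cilium. It was at 22.8 CPM in C 10876, 32.8 CPM in NS 10865 and 67.7 CPM in S 10880, each the highest of its group, with a log2 fold change of 2.32 (SE 0.47) and an adjusted p of 0.00335 in edgeR's quasi-likelihood test. Bicc1, an RNA-binding protein whose loss causes cystic kidneys and ducts, was at 7.48, 19.3 and 9.38 CPM in the same animals, also the highest of each group, with a log2 fold change of 1.96 (SE 0.35, adjusted p of 0.0013). Pkhd1 was not called without S 10880 (0.116, with a range of 2.95e-05 to 0.116 over the alternatives), while Bicc1 was called in all 7 alternatives. Cldn4, Slc5a1, Itga6 and Itgb4 were each lost with at least 1 SM2 animal left out (adjusted p of up to 0.296, 0.2095, 0.155 and 0.1205), and Cldn4 in C 10876, at 17.2 CPM, lay amid the other C animals. Thus Krt7 and Spp1 were called lower and Pkhd1 and Bicc1 higher in SM2. Krt7 was called in 2 of 7 alternatives, Spp1 in 4, Pkhd1 in 6 and Bicc1 in all 7.

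Of the other lists, 1 of 15 progenitor genes (Kit, lower) and 2 of 21 Notch genes (Maml3 and Notch4, higher) were called between the stocks. So were 5 of 19 YAP and TAZ genes (Tead4 higher, Amotl1, Axl, Ccn2 and Wwtr1 lower). Over all tested genes 10.8% were called. Wwtr1, which encodes TAZ, was at 2.76, 2.02 and 4.26 CPM in C 10876, NS 10865 and S 10880, the lowest of each group, and had a log2 fold change of -1.63 (SE 0.23) with an adjusted p of 0.000181 in edgeR's quasi-likelihood test. Notch4 was at 10.2, 36.2 and 26.7 CPM in the same animals, the highest of each group, with a log2 fold change of 1.67 (SE 0.24, adjusted p of 0.000197). Both were called in all 7 alternatives, while Kit, Maml3, Tead4, Amotl1, Axl and Ccn2 were each lost with at least 1 SM2 animal left out (adjusted p of up to 0.272, 0.149, 0.150, 0.108, 0.145 and 0.193).

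Of the 8 endothelial genes, Pecam1, Kdr and Tek were called lower and Lyve1 higher in SM2, where 10.8% of all tested genes were called. The median log2 fold change was -0.72, beside -0.037 over all tested genes. Lyve1 was at 12.9 CPM in C 10876 and 30.1 CPM in NS 10865 but, at 0.9745 CPM, lowest of its group in S 10880. Of the 13 stellate cell and fibroblast genes Lum was called, lower, with a log2 fold change of -4.13 and an adjusted p of 3.49e-05. Pecam1 and Lum were called in all 7 alternatives, while Kdr, Tek and Lyve1 had adjusted p-values of up to 0.3995, 0.323 and 0.179. The part of these cells in the stock differences was not tested.

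The hepatocyte markers summed to 58640 to 75920 CPM in C and 46790 to 68250 CPM in S. Of the 10 tested, 7 had an unadjusted p under 0.05 in S vs C, beside 23.8% of all tested genes. The median log2 fold change of the 10 was -0.57, beside 0.10 over all tested genes, but they did not all move the same way. Of the most abundant, Apoa1 had a log2 fold change of 0.96 (SE 0.275), Ttr of -0.66 (SE 0.21) and Fgb of -0.66 (SE 0.17). The part of hepatocytes in the other differences between S and C was not tested. Of 8 endothelial genes 0 were called in S vs C by edgeR, 1 had an unadjusted p under 0.05 and DESeq2 called 0, with sums, led by Stab2, of 147 to 282 CPM in C and 133 to 312 CPM in S. Of 8 B cell and granulocyte genes Cd79b was called higher and S100a8 and S100a9 lower in S vs C by edgeR. DESeq2 called 3, where edgeR called 4.06% of all tested genes. Cd79b rested on few counts, at 0.0984 to 0.469 CPM in C and 0.563 to 1.83 CPM in S. Cd79a of the same list was not called, with a log2 fold change of 0.29 (SE 0.455). Cd79b was called in 21 of 27 alternatives (adjusted p of up to 0.259). S100a8 and S100a9 were each called in 25 of 28 (up to 0.160 and 0.138). The sums of this list, led by S100a9, were 29.2 to 78.2 CPM in C and 9.85 to 25.65 CPM in S. The mesothelial (5 genes tested), erythroid (2) and pancreatic acinar (3) lists had 0 genes called in S vs C by edgeR, 0 with an unadjusted p under 0.05 and 0 by DESeq2.

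Their sums in S were at most 4.14, 7.43 and 18.9 CPM, with Msln, Alas2 and Cela1 the most abundant on average. Klf1 of the erythroid list and Cpb1, Pnlip and Clps of the acinar list were at 0 in every animal. Of the 65 genes tested of the 8 cell type lists, 8 were called in S vs C by edgeR, 4 higher and 4 lower, and 5 by DESeq2, and 20 had an unadjusted p under 0.05, beside 4.06% called and 23.8% under 0.05 of all tested genes. In NS vs C 0 of the 65 were called by edgeR, 8 had an unadjusted p under 0.05, beside 8.29% of all tested genes, and DESeq2 called 2. In S vs NS 0 of the 65 were called by edgeR, 14 had an unadjusted p under 0.05, beside 10.9% of all, and DESeq2 called 0. In SM2 vs BW, Cela1 and Ctrb1 of the acinar list were called higher, where 10.8% of all tested genes were called. Cela1 was called in 6 of 7 alternatives and Ctrb1 in 4 of 6 (adjusted p of up to 0.307 and 0.267). Ctrb1 had a single count in C 10876. The acinar sums were 6.30, 7.82 and 18.9 CPM in C 10876, NS 10865 and S 10880, against 0.563 to 4.17 CPM in the BW animals. The part of such RNA in the stock differences was not tested.

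The members were also compared with each other over the 16 animals, by log2 CPM, in 21 pairs. The pair with the highest Pearson's r was Krt7 and Spp1, with r of 0.649 (permutation p of 0.00672, adjusted over the pairs 0.141) and Spearman's rho of 0.503 (permutation p of 0.0499, adjusted 0.5045). It rested on NS 10865 and S 35990, since without them r was 0.300, and within the BW animals it was 0.394. Krt7 and Krt19, the duct keratins, were next by r at 0.537 (permutation p of 0.0314, adjusted 0.330) and had the highest rho at 0.535 (permutation p of 0.0345, adjusted 0.5045), and r was 0.499 without NS 10865 and S 35990 and 0.549 within the BW animals. Within the BW animals the pair farthest from 0 was Krt7 and Krt23, with r of -0.612, against -0.218 over all 16. Of the 21 pairs 12 had a positive r and 0 had an adjusted p under 0.05, against 2 with an unadjusted p under 0.05.

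The genes whose pattern was most like the mean z-score of the 7 members over the 16 animals were Cav2 (r of 0.882, and 0.881 within BW), Ano7 (0.829), Nkain4 (0.818), Oit1 (0.817), Negr1 (0.815), Ube2e1, Sectm1a, Pde3a, Hic1 and Ptgs1 (0.798). Within BW the other 9 lay between 0.638 for Ptgs1 and 0.774 for Oit1. For single members the closest genes were Vegfb and Lamb1 for Krt7 (0.853 and 0.849), Zfp422 and Ehf for Krt19 (0.786 and 0.778), Pmvk and Acyp1 for Krt23 (0.838 and 0.827) and Ak4 and Phkb for Sox9 (0.799 and 0.795). They were Erich1 and Khdrbs3 for Spp1 (0.851 and 0.846), Spidr and Gpx2 for Cftr (0.794 and 0.768) and Eef1a1 and Ccdc167 for Prom1 (0.794 and 0.787). Each is the highest among all tested genes outside the set and is given as a description. Ehf, an epithelial transcription factor of the bile duct list, was the only one of these genes that stood on a list used here. Its mean level was 0.469 CPM.

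Coordination was described by Pc, the correlation between a gene's correlations with all other genes in one group and in the other, on counts as deposited. The median Pc of the 7 members was 0.163 for S against C, 0.0279 for NS against C and 0.279 for S against NS, beside 0.201, 0.102 and 0.174 over 13431, 13336 and 13385 genes. The jackknife standard errors over animals were 0.152, 0.0929 and 0.220, larger than the distance to the median of all genes in each comparison. The lowest single value was -0.181 for Cftr in S vs C, which became 0.119 without C 10876. The highest was 0.423 for Krt19 in S vs NS, followed by Krt7 at 0.372, and these became 0.154 and 0.109 without S 10880.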

How the data were processed

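Liver RNA was sequenced from 16 animals. The authors aligned the reads with STAR 2.7.2 to the HU_Pman_2.1 assembly and deposited raw counts per gene from featureCounts under mouse-style symbols, without normalization. The strand setting and the conversion to symbols are not given in the sources used here, so overlapping and antisense genes and close paralogs, keratins included, are uncertain. The sample labels gave group, sex and stock. Every column was matched to an animal (0 unmatched), 0 lines lacked a gene name, and 2251 genes had 0 counts in every animal. No 2 animals of a group agreed within sampling noise (lowest chi-square per degree of freedom 23.6), and each animal was 1 replicate.

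Counts were tested in R 4.3.3 by the two-sided quasi-likelihood test of edgeR 4.0.16, which loads limma 3.58.1, after TMM normalization, in 1 fit of all 16 animals without covariates, for genes reaching 0.5 CPM in 1 animal or more. The stock difference came from a fit with group and stock. Genes were called at a Benjamini-Hochberg adjusted p under 0.1, over all tested genes, and a fold change of at least 2. Correlations used log2 CPM with a prior count of 2 and 100000 permutations. Pc and summaries were computed with scipy 1.17.1, pandas 2.3.3 and numpy 2.4.6 under Python 3.11.15, and matplotlib 3.10.9 drew the figures. The edgeR calls and Pc were tested on simulated data.

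The members and lists were chosen with earlier results of these data known. Genes named are the members, every gene of the bile duct, progenitor, Notch and YAP and TAZ lists that was called (with the 3 of smallest p where fewer than 3 were), the most abundant gene of each cell type list, the 10 genes most like the members' mean z-score and the 2 most like each member. Other called marker genes, such as Mmp12, were named after their values were seen, and 1 result of the hepatocyte list is not reported here. Alternatives used RLE size factors, DESeq2 1.42.0, other filters, sex or stock as a covariate, BW or male animals alone, only the groups compared, other thresholds and each animal left out (for the stock difference, each SM2 animal). Every tally for S vs C includes the NS animals left out, which keeps the S and C counts as they were. For Pc, CPM, log2 CPM and Spearman's rho were used. Leaving out S 35990 and 36016 together was added after the data were seen. A count of 0 was read as up to 3 counts, and intervals cover counting error only.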

Additional observations from a re-analysis of the deposited data

Results flagged for a closer look

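In each group of animals, the gap between the highest or lowest animal and the next was set against the range of the group. The rule takes chance alone to give about 1 in 20, which need not hold for CPM that are skewed at low counts. Among the 7 members 2 of 21 groups held an animal set apart in this way, which is given as a description. Over all 120 groups of values 23 did, but these include related genes chosen because they were called, for which 1 in 20 is no yardstick. Krt23 in NS 35987 was 244.6 CPM, with the next animal at 157.7 CPM, and Spp1 in S 35990 was 25.65 CPM, with the next at 7.70 CPM.

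The SM2 animals were set apart for several related genes. C 10876 was highest for Bicc1 (7.479 CPM), Itga6 (7.282 CPM) and Notch4 (10.23 CPM) and lowest for Wwtr1 (2.755 CPM). NS 10865 was highest for Bicc1 (19.29 CPM), Itgb4 (25.46 CPM), Jag2 (12.98 CPM), Notch4 (36.18 CPM) and the summed acinar markers (7.815 CPM). S 10880 was highest for Pkhd1 (67.73 CPM), Slc5a1 (3.898 CPM), Maml3 (5.725 CPM) and the summed acinar markers (18.88 CPM).

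Of the BW animals set apart within their group, S 35990 was highest of S for Wfdc2 (24.41 CPM), Dlk1 (56.74 CPM) and Sall4 (0.09536 CPM, a single count where the other S animals had 0). S 36016 was highest of S for the summed stellate cell and fibroblast markers (3572 CPM). Dlk1 was also set apart in C 35998 (0.938 CPM) and NS 35987 (0.9873 CPM), Ccn1 in C 35972 (33.51 CPM) and Ccn2 in C 35975 (28.71 CPM).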

How the results depend on the processing

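Between the diet and steatosis groups, 0 members were called under every alternative except that Prom1 was called in S vs C without C 35998 (1 member, and 0 without any other animal). Some members that were not called turned direction with single animals, and the cause was not tested, while Krt7, Krt19 and Prom1 kept theirs for S against C in every alternative. In S vs C, leaving out 1 animal gave log2 fold changes from -0.061 to 0.36 for Krt23, -0.22 to 0.45 for Sox9, -0.20 to 0.90 for Spp1, and 190.0 to 573 genes called. In NS vs C it gave -0.11 to 0.20 for Krt7, -0.040 to 0.26 for Krt23, -0.10 to 0.31 for Cftr and 2 to 29 genes called. In S vs NS it gave -0.15 to 0.44 for Krt19, -0.21 to 0.26 for Krt23 and 1 to 15 genes called. For SM2 vs BW only SM2 animals were left out singly, which gave -1.43 to 0.49 for Cftr, 868 to 1448 genes called and 0 to 1 members called.

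Without S 35990 and 36016 the log2 fold change was -0.40 for Spp1 in S vs C, with 191 genes called, and it was -0.44 for Krt19 and -0.061 for Spp1 in S vs NS, with 0 genes called. That setting left 0 members called in SM2 vs BW, and RLE size factors left 1. With BW animals alone, Cftr was 0.19 in S vs C and Krt7 0.090 in NS vs C, and 18 genes were called in S vs NS. With male animals alone, Krt23 was -0.082 and Sox9 0.35 in S vs NS, with 157 genes called. With sex in the fit these were -0.083 and 0.35, with 191 genes called in S vs NS. For Dlk1 in S vs C edgeR gave up to 5.89 with 1 animal left out, -4.31 without S 35990, -4.34 without S 35990 and 36016, -4.30 with male animals alone and -4.31 with sex in the fit. These 4 negative values are no estimates of a fold change, because the S animals behind them had 0 counts. With stock in the fit 29 genes were called for NS against C and 17 for S against NS.

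DESeq2 called 53 genes for NS against C and 71 for S against NS, and a fit of only the groups compared called 0 in S vs NS. At an adjusted p under 0.05, 209 genes were called for S against C and 5 for NS against C, and with no fold minimum 1359 in S vs C. The median Pc of the members for S against C fell from 0.163 to 0.0415 with CPM, 0.0941 with log2 CPM and 0.0718 with Spearman's rho, and was 0.0259 without S 35990 and 0.2185 without S 36016. For NS against C it lay between -0.0146 without C 10876 and 0.0878 without NS 35930, and for S against NS between 0.0979 without S 10880 and 0.338 without NS 35963. Counts of 31 or fewer for Krt19, 25 or fewer for Sox9 and 14 or fewer for Prom1 per animal limit what these libraries can show. No paired analysis was possible because the replicate numbers only name the animals.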
